A study of Mus musculus with 6 samples.

Results

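The genes described here are the Wnt ligands, receptors, R-spondins, secreted inhibitors, transducers and feedback targets of mouse dorsal skin, compared between mice with and without a working copy of the clock gene *Bmal1*. They were listed by name, 54 in all: 19 ligands, 13 receptors and coreceptors, 4 R-spondins, 9 secreted inhibitors, 6 intracellular transducers and 3 feedback inhibitors that are themselves Wnt targets. A probe set was taken for a gene where the platform annotation names that gene and no other, which gave 53 of the 54 genes and 54 probe sets, of 19938 genes named in this way and 35557 probe sets on the array. *Tcf7* had no probe set of its own and is not analysed here. *Wnt4* had 2 and is represented by the brighter, as any gene with several would be.

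The 3 *Bmal1*-/- mice were all female. Their 3 *Bmal1*+/- littermates were 1 male (replicate 1) and 2 females, so every mouse carried at least 1 mutant *Bmal1* allele and none was wild type. Both genotypes were in a C57BL/6J background. Skin was taken at postnatal day 22, although for the male one label gives day 22 and another day 23, and histology placed the follicles of both genotypes in telogen, the resting phase. Whole dorsal skin RNA of each mouse was hybridised to its own whole-transcript Affymetrix array (Mouse Gene 1.0 ST), and the study asked if genes regulated by CLOCK depend on BMAL1 in skin.

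Wnt proteins are secreted, lipid-modified ligands that bind Frizzled receptors together with the coreceptors Lrp5 and Lrp6. In the canonical branch this frees beta-catenin from a destruction complex built on Axin and Apc, and beta-catenin then acts with Tcf and Lef factors on target genes. R-spondins keep Frizzled receptors at the cell surface through Lgr4 and its relatives, while Dkk, Sfrp and Wif1 proteins act outside the cell against coreceptors or ligands, and in the hair follicle this pathway is known for its part in starting a new growth phase.

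The arrays had median intensities of 219 to 235.5. The targeted gene *Bmal1*, annotated as *Arntl*, read 569, 610 and 664 in *Bmal1*-/- mice, against 325, 364.5 and 355.5 in *Bmal1*+/- mice. The sources used here do not place its probes relative to the mutation, and its level therefore does not check the genotypes. The clock output genes *Nr1d1* and *Dbp*, which BMAL1 is known to activate, fell by 3.11 and 2.55 on the log2 scale (limma, adjusted p = 2.0e-05 and 6.2e-06). Basal keratinocyte markers were bright in both genotypes: 4 of them summed to 18770 to 20910 in *Bmal1*-/- and 20620 to 22660 in *Bmal1*+/- skin. The 9 markers of the anagen matrix and hair shaft summed to 1469 to 1784 in *Bmal1*-/- and 1367 to 1897 in *Bmal1*+/- skin. Their mean intensities, 136 (*Krt27*) to 246 (*Dlx3*), were low. Of these 9, 1 (*Dlx3*, 0.28 on the log2 scale) was higher in *Bmal1*-/- skin at an unadjusted p under 0.05 (limma), against 4.17% of all tested probe sets. As a rough guide to dimness, 1035 olfactory receptor probe sets had a 90th percentile of 118, and 8 Wnt pathway genes had mean intensities within that range: *Wnt1*, *Wnt2*, *Wnt7a*, *Wnt8a*, *Wnt8b*, *Rspo2*, *Rspo4* and *Dkk4*. Differences below are *Bmal1*-/- minus *Bmal1*+/- on the scale log2(intensity + 16), which understates the change of such dim genes.

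No Wnt pathway gene passed the limma test between the genotypes. At an adjusted p under 0.05 (limma, two-sided, Benjamini-Hochberg over 23410 probe sets) 0 of 53 were lower, where 0.132% of all tested probe sets were, and 0 were higher, where 0.0982% were. The smallest adjusted p was 0.154, for the secreted inhibitor *Wif1*. At the study's own threshold, an unadjusted p of 0.001, limma likewise passed 0 of the 53, against 0.649% of all tested probe sets. The study, however, applied that threshold with Cyber-T. A regularised test of the Cyber-T type called 2 of the 53 at an adjusted p under 0.05, *Wif1* and *Sfrp4*, against 1.17% of all tested probe sets. At an unadjusted p under 0.001 it called 3, *Wif1*, *Sfrp4* and *Fzd4*, against 1.34% of all tested.

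At an unadjusted p under 0.05, 8 of the 53 genes were lower in *Bmal1*-/- skin, which is 15.1%, against 4.6% of all tested probe sets. They were *Wif1*, *Sfrp4*, *Lef1*, *Fzd4*, *Sfrp1*, *Rspo3*, *Rspo1* and *Lgr4*. None was higher at that level, against 4.17% of all tested. The values of the 2 genotypes did not overlap for 10 genes that were lower in *Bmal1*-/- mice, 18.9% of the 53 against 7.68% of all tested, namely those 8 with *Wnt5a* and *Nkd1*. They did not overlap for 2 genes that were higher, *Fzd5* and *Lrp5*, against 6.99% of all tested. The median difference over the 53 was -0.0031 on the log2 scale, beside 0.0138 over all tested probe sets. A p that misses the threshold does not show that levels were alike. The 95% intervals reached from 0.13 to 0.38 on either side of a gene's difference, with a median of 0.21, and the number of arrays limits this precision.

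**Figure D1:**
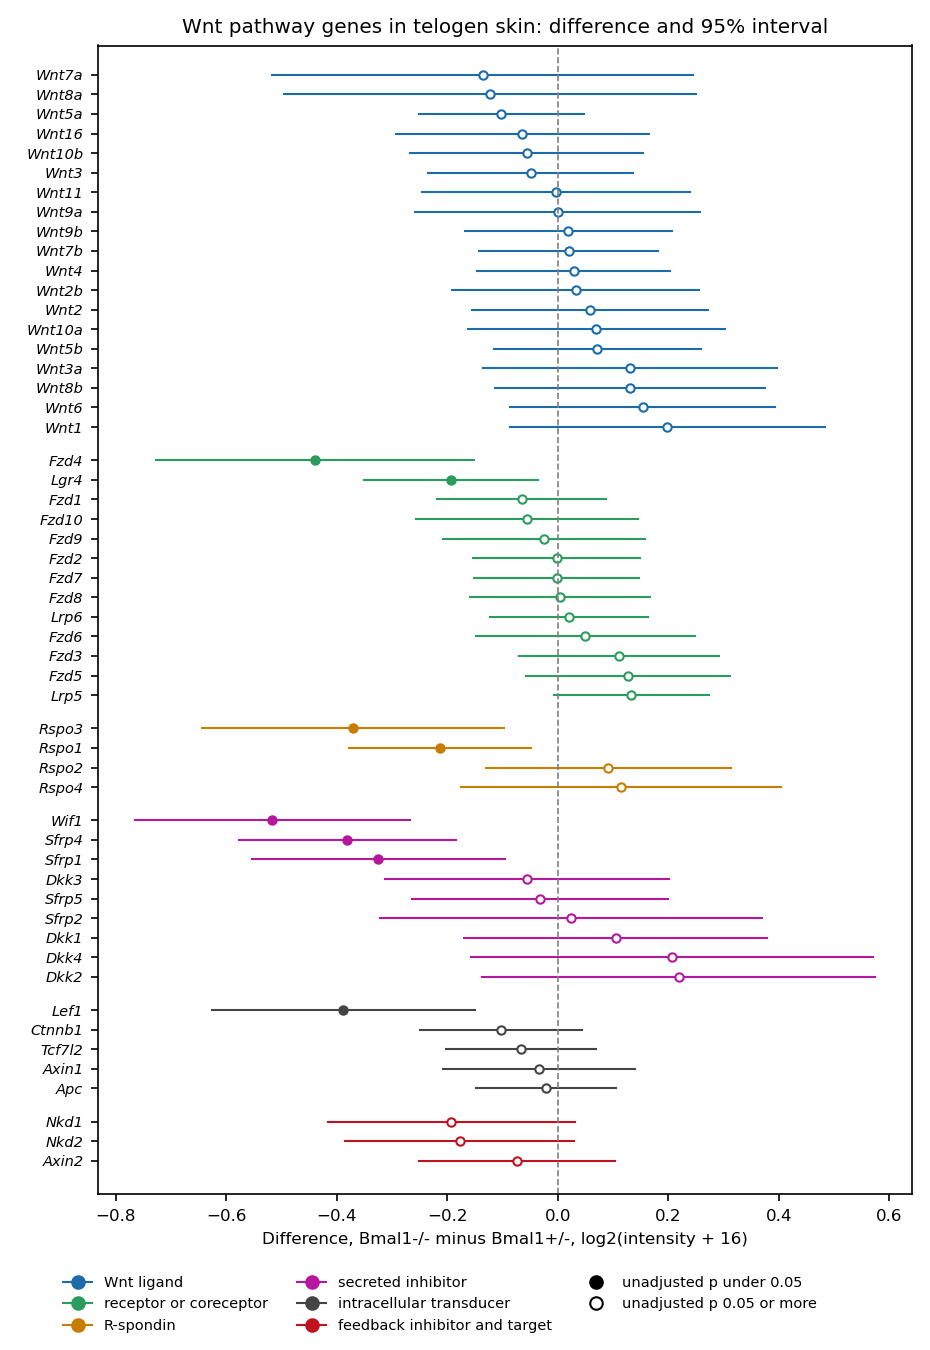
Difference between *Bmal1*-/- and *Bmal1*+/- skin for each of the 53 measured Wnt pathway genes, in log2(intensity + 16), grouped and coloured by role. Points are limma estimates from 3 mice of each genotype and lines their 95% intervals. Filled points, all 8 of them left of 0, have an unadjusted p under 0.05, and none has an adjusted p under 0.05.

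BMAL1 and its partner CLOCK are known to bind the E-box, the word CACGTG, so the promoters of the genes were read for it. RefSeq promoters (GRCm38.p6, 250 bases before to 50 after an annotated start) were found for 36 of the 54 genes, 45 promoters in all. The E-box, which reads the same on both strands, stood in 5 of the 45 (11.1%), against 7.15% of all 32851 RefSeq promoters of that length. The stretches around it are shown for all 5 genes, of which 2, *Wif1* and *Lef1*, are among the 8 lower genes and the others are not. As 18 of the 54 genes had no promoter to read, no share is given for the 8 lower genes. Capitals mark the E-box, and 20 bases stand on each side of it, read 5′ to 3′ on the strand of the gene.
Wif1: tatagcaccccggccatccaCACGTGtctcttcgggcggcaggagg
Lef1: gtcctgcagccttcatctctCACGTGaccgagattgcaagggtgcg
Fzd9: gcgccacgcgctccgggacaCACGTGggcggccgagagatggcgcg
Rspo4: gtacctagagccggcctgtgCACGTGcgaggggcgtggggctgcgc
Wnt9a: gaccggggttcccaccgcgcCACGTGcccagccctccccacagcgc
The *Wif1* stretch is chr10:121033774-121033819 on the plus strand, with its E-box 210 bases before the start. The *Lef1* stretch is chr3:131156195-131156240 on the plus strand, 79 bases before 1 of the 4 starts annotated for that gene. *Fzd9* has its stretch at chr5:135251110-135251155 on the minus strand, *Rspo4* at chr2:151842799-151842844 and *Wnt9a* at chr11:59306682-59306727, both on the plus strand, with E-boxes 88, 108 and 228 bases before their starts. The differences of *Fzd9*, of the dim *Rspo4* and of *Wnt9a* were -0.03, 0.11 and 0.00, with intervals that include 0. A link between this word and the differences was not tested. The related word CACGTT, on either strand, stood in 1 of the 45 promoters (2.22%, *Rspo1*), against 4.68% of all. The Tcf and Lef words CTTTGAT and CTTTGTT, on either strand, stood in 6 of the 45 (13.3%: *Dkk1*, *Fzd7*, *Tcf7l2*, *Wnt11*, *Wnt3* and *Wnt5b*), against 9.33% of all, and in none of the 8 lower genes whose promoters were read. Such matches are descriptions of letters and name no bound site.

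Among the 19 ligands, 7 had a negative and 12 a positive difference, with a median of 0.02, and 0 reached an unadjusted p under 0.05. Of all tested probe sets, 45.28% were negative, and 4.6% were lower and 4.17% higher at that level (limma). The ligand nearest to a separation was *Wnt5a*, which signals largely outside beta-catenin. Its intensities were 486, 508 and 514 in *Bmal1*-/- mice, against 527, 569.5 and 526 in *Bmal1*+/- mice. Every *Bmal1*-/- value lay below every *Bmal1*+/- value, by a small margin, and the difference was -0.10 (95% interval -0.25 to 0.05, limma adjusted p = 0.692). *Wnt10b*, a canonical ligand known for promoting hair growth, had 256, 245.5 and 208 in *Bmal1*-/- mice, against 247, 234 and 257 in *Bmal1*+/- mice. The genotypes overlapped, the low value belonged to *Bmal1*-/- replicate 3, and the difference of -0.06 (-0.27 to 0.15) became 0.03 without that mouse.

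Other canonical ligands of skin did not separate the genotypes. *Wnt3* differed by -0.05, *Wnt3a* by 0.13, *Wnt10a* by 0.07, *Wnt7b* by 0.02 and *Wnt4* by 0.03, each with an interval that spans 0, and the second *Wnt4* probe set gave -0.01. *Wnt6* (0.15) and *Wnt1* (0.20) had the most positive ligand values. For *Wnt6* these were 221, 178 and 179 in *Bmal1*-/- mice, against 184, 158 and 171 in *Bmal1*+/- mice, where 1 high *Bmal1*-/- mouse stood apart and the rest overlapped. *Wnt2* (0.06), *Wnt2b* (0.03), *Wnt5b* (0.07), *Wnt8b* (0.13), *Wnt9a* (0.00), *Wnt9b* (0.02), *Wnt11* (0.00) and *Wnt16* (-0.06) also overlapped. The most variable ligands were dim. *Wnt7a* had 78.9, 93.6 and 101.5 in *Bmal1*-/- mice, against 88.2, 84.0 and 139.5 in *Bmal1*+/- mice, and *Wnt8a* had 56.6, 88.7 and 103 in *Bmal1*-/- mice, against 87.5, 90.3 and 89.99 in *Bmal1*+/- mice. In each, a single array sat far from the others of its genotype, *Bmal1*+/- replicate 3 for *Wnt7a* and *Bmal1*-/- replicate 1 for *Wnt8a*, and the differences were -0.14 and -0.12 with intervals wider than those of any other ligand.

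Of the 13 receptors and coreceptors, 2 (15.4%) were lower at an unadjusted p under 0.05 (limma), against 4.6% of all tested probe sets. They were *Fzd4* and *Lgr4*. *Fzd4*, a Frizzled that also receives the non-Wnt ligand norrin and is known for its role in vessels, had 1045, 1273 and 1508 in *Bmal1*-/- mice, against 1604, 1973 and 1593 in *Bmal1*+/- mice. The *Bmal1*-/- mice were spread widely below the *Bmal1*+/- mice, with the closest pair nearly touching. The difference was -0.44 (SE 0.13, limma adjusted p = 0.336). None of 5 endothelial markers had a negative difference, where 45.28% of all tested probe sets did, and none had an unadjusted p under 0.05 (limma). They summed to 3556 to 4666 in *Bmal1*-/- skin and 3415 to 3711 in *Bmal1*+/- skin, ranges that overlap. Their relation to *Fzd4* was not tested.

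*Lgr4*, an R-spondin receptor, had 1419, 1503 and 1473 in *Bmal1*-/- mice, against 1647, 1555 and 1842 in *Bmal1*+/- mice. The *Bmal1*-/- values sat close together below a wider *Bmal1*+/- group, a difference of -0.19 (SE 0.07, limma adjusted p = 0.460). It was -0.13 without *Bmal1*+/- replicate 3 and -0.17 without *Bmal1*-/- replicate 1, with unadjusted p of 0.093 and 0.058 (limma). The receptors with the opposite order were *Lrp5*, a coreceptor, and *Fzd5*. *Lrp5* had 852, 811 and 900 in *Bmal1*-/- mice, against 783, 788 and 759.5 in *Bmal1*+/- mice, a difference of 0.13 (-0.01 to 0.27, limma adjusted p = 0.589). *Fzd5* had 295, 304 and 293 in *Bmal1*-/- mice, against 293, 248 and 273 in *Bmal1*+/- mice, and its genotypes were separated only by a fraction of an intensity unit. The other coreceptor, *Lrp6*, differed by 0.02 (-0.12 to 0.16). *Fzd1* (-0.06), *Fzd2* (0.00), *Fzd3* (0.11), *Fzd6* (0.05), *Fzd7* (0.00), *Fzd8* (0.00), *Fzd9* (-0.03) and *Fzd10* (-0.06) overlapped between genotypes, so that *Fzd4* alone of the 10 Frizzleds had an interval that leaves out 0.

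The 4 R-spondins, the ligands of Lgr4 and its relatives, fell into 2 pairs. *Rspo3* had 125, 137 and 135 in *Bmal1*-/- mice, against 212, 150 and 170 in *Bmal1*+/- mice. The male *Bmal1*+/- mouse was the highest of the 6, the genotypes did not overlap, and the difference of -0.37 (SE 0.12, limma adjusted p = 0.413) was -0.24 without that mouse, with an unadjusted p of 0.053. *Rspo1* had 253, 270 and 270 in *Bmal1*-/- mice, against 300, 308 and 318 in *Bmal1*+/- mice. Here both genotypes were tight and apart, with a difference of -0.21 (SE 0.07, limma adjusted p = 0.444) that was -0.23 without the male. *Rspo2* and *Rspo4*, both within the range of the olfactory receptor probe sets, differed by 0.09 and 0.11 with overlapping genotypes.

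**Figure D2:**
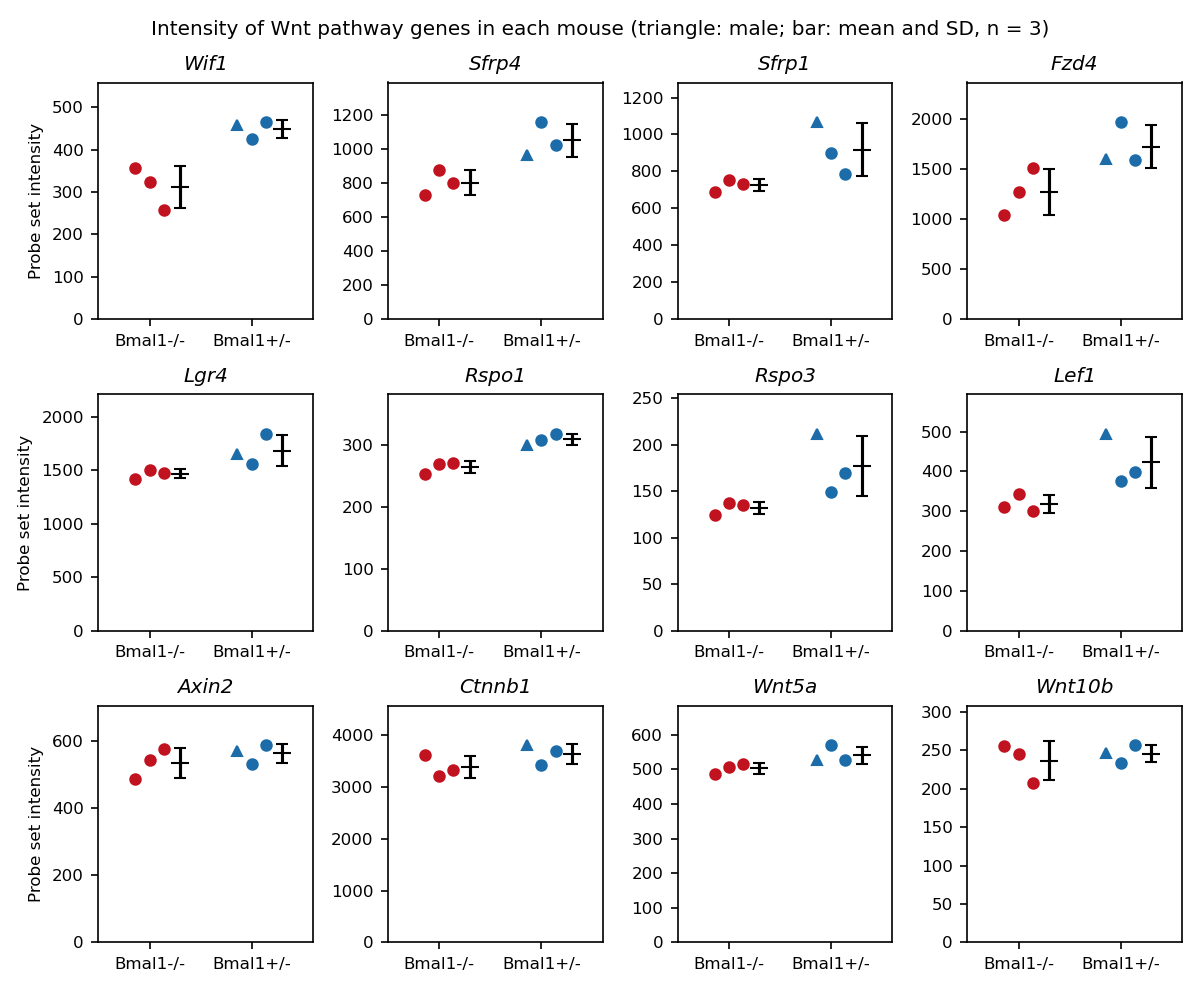
Probe set intensity, on a linear axis from 0, in each of the 3 *Bmal1*-/- mice (red, left) and 3 *Bmal1*+/- mice (blue, right) for 12 Wnt pathway genes, with the mean and SD as a bar; the triangle is the male. The genotypes do not overlap for the 8 genes in the upper 2 rows or for *Wnt5a*, and they overlap for *Axin2*, *Ctnnb1* and *Wnt10b*.

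Secreted inhibitors held the gene with the largest absolute difference of the 53. *Wif1*, which binds Wnt proteins directly, had 356, 324 and 257 in *Bmal1*-/- mice, against 458, 426 and 466 in *Bmal1*+/- mice. All 3 *Bmal1*-/- mice were below all 3 *Bmal1*+/- mice, whose own values were close together. The difference was -0.52 (SE 0.11, 95% interval -0.76 to -0.27, limma adjusted p = 0.154), and -0.50 without the male. Its promoter stretch with the E-box is the first shown above, and whether BMAL1 acts on *Wif1* there was not tested.

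The secreted Frizzled-related proteins, which resemble the ligand-binding part of Frizzleds, did not move as a family. *Sfrp4* had 731, 875 and 801 in *Bmal1*-/- mice, against 965, 1159 and 1026 in *Bmal1*+/- mice. The genotypes were apart, and the difference was -0.38 (SE 0.09, limma adjusted p = 0.195), or -0.44 without the male. *Sfrp1* had 689, 754 and 730 in *Bmal1*-/- mice, against 1068, 902 and 784 in *Bmal1*+/- mice, and the 3 *Bmal1*-/- mice were tight where the *Bmal1*+/- mice were spread, with the male the highest. That difference was -0.32 (SE 0.10, limma adjusted p = 0.390), and -0.21 without the male. *Sfrp2* had 1627, 1396 and 1447 in *Bmal1*-/- mice, against 1815, 1570 and 1095 in *Bmal1*+/- mice, the largest pooled SD of the 53 genes on the log2 scale (0.27), and a difference of 0.02 (-0.32 to 0.37). *Sfrp5* differed by -0.03 (-0.26 to 0.20).

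The Dickkopf genes, whose best known products block Lrp5 and Lrp6, did not separate the genotypes. *Dkk3*, a divergent member, had 576, 592 and 749 in *Bmal1*-/- mice, against 623, 610 and 757 in *Bmal1*+/- mice. Replicate 3 of each genotype was the high one, and the difference of -0.06 turned positive, to 0.04 and 0.01, when *Bmal1*+/- replicate 3 or *Bmal1*-/- replicate 1 was left out. *Dkk2* had 423, 425.5 and 373 in *Bmal1*-/- mice, against 254, 407 and 404 in *Bmal1*+/- mice. The low value was the male, without which the difference of 0.22 became 0.00. *Dkk1* differed by 0.11 (-0.17 to 0.38), and the dim *Dkk4* had 64.9, 62.9 and 60.3 in *Bmal1*-/- mice, against 54.8, 36.9 and 68.6 in *Bmal1*+/- mice, a difference of 0.21 (-0.16 to 0.57).

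Of the 5 transducers measured, all had negative differences, with a median of -0.07, where 45.28% of all tested probe sets were negative. While 4.6% of all tested were lower at an unadjusted p under 0.05 (limma), 1 of the 5 was. That was *Lef1*, the beta-catenin partner characteristic of hair precursor cells, with 311, 343 and 300 in *Bmal1*-/- mice, against 495, 375 and 398 in *Bmal1*+/- mice. The genotypes did not overlap, the male was again the highest, and the difference was -0.39 (SE 0.11, limma adjusted p = 0.297), or -0.27 (unadjusted p = 0.016, limma) without the male. *Ctnnb1*, which encodes beta-catenin, had 3623, 3216 and 3321 in *Bmal1*-/- mice, against 3804, 3420 and 3687 in *Bmal1*+/- mice. The genotypes overlapped, with a difference of -0.10 (-0.25 to 0.04, limma adjusted p = 0.688). The other nuclear partner, *Tcf7l2*, differed by -0.07 (-0.20 to 0.07), and the destruction complex scaffolds *Axin1* and *Apc* by -0.03 (-0.21 to 0.14) and -0.02 (-0.15 to 0.11).

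The feedback inhibitors are induced by Wnt signalling and serve widely as its readout. *Axin2*, the most used of them, had 487, 545 and 577 in *Bmal1*-/- mice, against 572, 533 and 588.5 in *Bmal1*+/- mice. The genotypes overlapped, and the difference was -0.07 (-0.25 to 0.10, limma adjusted p = 0.824), with -0.0083 without *Bmal1*-/- replicate 1 and -0.13 without *Bmal1*-/- replicate 3. *Nkd1*, which acts on Dishevelled, had 278.5, 285 and 269 in *Bmal1*-/- mice, against 305, 287 and 373 in *Bmal1*+/- mice, a separation that rests on a close pair of values, and differed by -0.19 (-0.42 to 0.03, limma adjusted p = 0.625). Its relative *Nkd2* had 208, 224 and 250 in *Bmal1*-/- mice, against 245, 278 and 253 in *Bmal1*+/- mice, overlapped, and differed by -0.18 (-0.39 to 0.03).

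**Figure D3:**
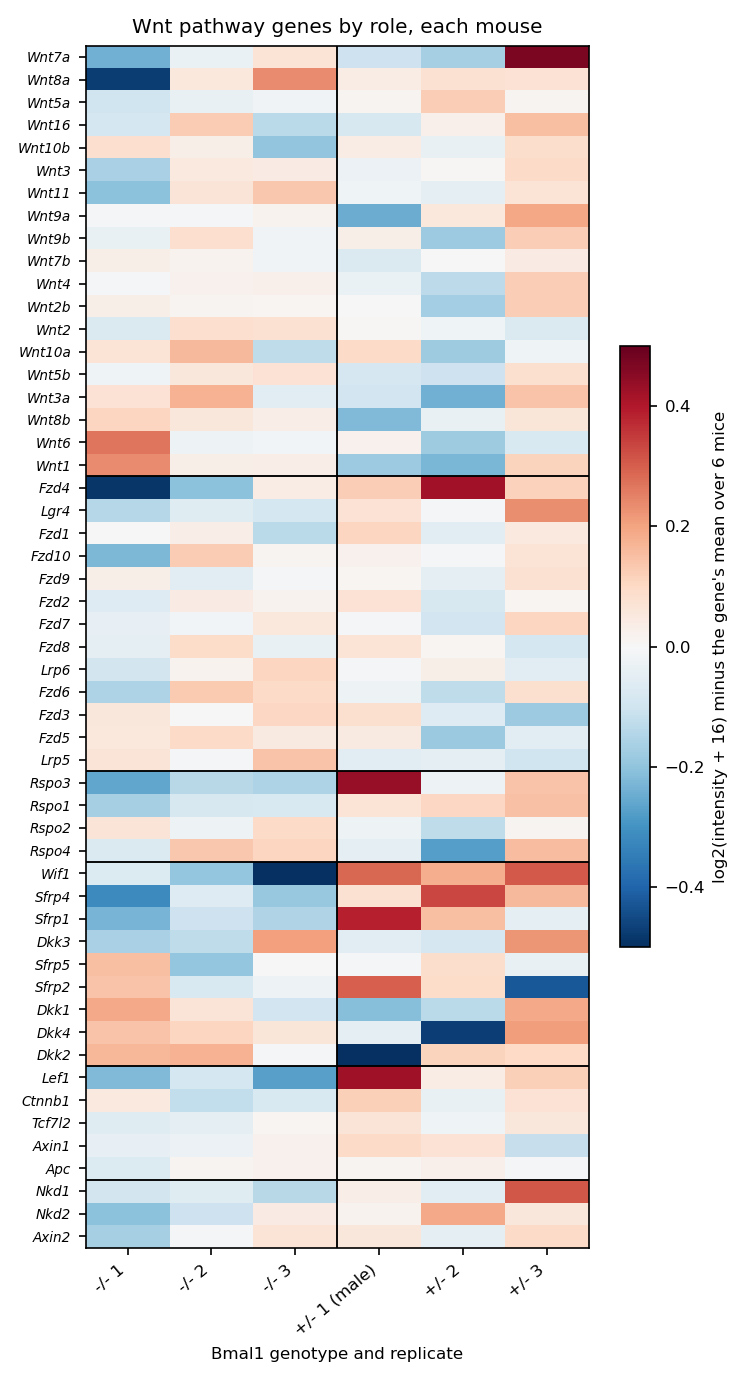
Deviation of log2(intensity + 16) from each gene's mean over the 6 mice, for the 53 measured genes in rows by role and the mice in columns, *Bmal1*-/- on the left. Blue is below and red above the gene's mean, with colours saturated at 0.5 in either direction; the male *Bmal1*+/- mouse is darkest red for *Sfrp1*, *Rspo3* and *Lef1* and darkest blue for *Dkk2*.

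Over all 53 genes *Bmal1*+/- replicate 3 lay highest as a whole and *Bmal1*-/- replicate 1 lowest. The median deviation from the gene means was -0.05, 0.01 and 0.01 in the *Bmal1*-/- mice, against 0.01, -0.04 and 0.08 in the *Bmal1*+/- mice, beside -0.01, 0.01 and 0.02 in *Bmal1*-/- and -0.02, -0.02 and 0.03 in *Bmal1*+/- mice over all tested probe sets. Replicate spread was ordinary, with a median SD of 0.11 on the log2 scale both for the 53 and for all tested. Without the male, 7 of the 8 lower genes still had an unadjusted p under 0.05 (limma), all but *Rspo3*. *Lgr4* lost that level without *Bmal1*+/- replicate 3 or *Bmal1*-/- replicate 1, and *Rspo1* without *Bmal1*-/- replicate 1 (unadjusted p = 0.052, limma). The other 5 kept it whichever array was left out. With 1 male among 6 mice, his sex and any other property of his array cannot be told apart.

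Of 67 other genes of the pathway, listed by name but with earlier results of these data known, 66 were measured. At an adjusted p under 0.05 (limma) 0 were lower and 0 higher in *Bmal1*-/- skin, and the Cyber-T type test called 2 (*Ccnd1* and *Lgr6*), against 1.17% of all tested probe sets. At an unadjusted p under 0.05 (limma) 5 were lower, 7.58% against 4.6% of all tested, and 1 was higher, against 4.17%. *Ccnd1*, the cyclin D1 gene and a known beta-catenin target, had 826.5, 801 and 765 in *Bmal1*-/- mice, against 1353, 999.5 and 1037 in *Bmal1*+/- mice, a clear gap with the male highest. The difference was -0.48 (SE 0.11, limma adjusted p = 0.164), and -0.35 without the male.

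*Lgr6*, an R-spondin receptor and relative of *Lgr4*, had 486, 467 and 457 in *Bmal1*-/- mice, against 710, 545 and 590 in *Bmal1*+/- mice, again without overlap, a difference of -0.37 (SE 0.09, limma adjusted p = 0.254). *Rnf43*, a ubiquitin ligase that removes Frizzleds and is restrained by R-spondins, had 232, 272 and 259 in *Bmal1*-/- mice, against 319, 340 and 314 in *Bmal1*+/- mice, and differed by -0.33 (SE 0.08, limma adjusted p = 0.236). The targets *Edar* (-0.24) and *Cd44* (-0.19) overlapped between genotypes, and the higher gene was *Dkkl1* (0.21), a relative of the Dickkopf genes. The 10 receptors and receptor regulators in this list, *Lgr6* and *Rnf43* among them, had a median difference of -0.13 with 9 negative, beside -0.01 over the 66 genes. Of all tested probe sets, 45.28% were negative. The 18 other cytoplasmic components had a median of 0.02 and none that separated the genotypes. Of all tested probe sets, 7.68% separated them with *Bmal1*-/- mice lower and 6.99% with *Bmal1*-/- mice higher.

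Markers of cell types were read beside these genes, since in bulk skin fewer cells of a type and less RNA per cell cannot be told apart. None of the markers had an adjusted p under 0.05 in the limma fit. The Cyber-T type test, which called 1.17% of all tested probe sets, called the melanocyte genes *Dct* (adjusted p = 0.0015) and *Tyrp1* (adjusted p = 0.020). Of the 6 melanocyte markers, 4 were lower at an unadjusted p under 0.05 (limma), against 4.6% of all tested probe sets. They were *Dct*, *Tyrp1*, *Tyr* and *Pmel*, with differences of -0.65, -0.39, -0.36 and -0.34. *Tyr*, with a mean intensity of 71, lay within the range of the olfactory receptor probe sets. The 6 melanocyte markers summed to 1666 to 1765 in *Bmal1*-/- skin and 2078 to 2545 in *Bmal1*+/- skin. *Mlana* and *Mitf*, which also mark these cells, differed by 0.03 and -0.13 and overlapped. The mean of *Mlana*, 121, was just above the olfactory receptor limit of 118. In the male, *Dct* was 1076 against 785 and 728 in the other *Bmal1*+/- mice. He was also the highest for *Lef1*, *Sfrp1* and *Rspo3*, but this is 1 mouse, and a link between these genes was not tested.

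Of the 8 fibroblast markers, 2 were lower at an unadjusted p under 0.05 (*Vim* and *Col3a1*, limma), against 4.6% of all tested probe sets. The 8 summed to 68330 to 76160 in *Bmal1*-/- and 74530 to 82190 in *Bmal1*+/- skin. Of the 6 bulge and hair germ markers, 4 had negative differences, with *Cd34* (-0.26) lower at that level, and 2 positive, *Sox9* (0.12) and *Cdh3* (0.04). They summed to 14070 to 15760 in *Bmal1*-/- and 15560 to 17000 in *Bmal1*+/- skin. The 6 dermal papilla markers were split, 3 negative and 3 positive. *Alx4* (-0.31) was lower at that level, while *Sox18* (0.22), *Prom1* (0.16) and *Corin* (0.08) were the positive ones. *Prom1* and *Corin* lay within the range of the olfactory receptor probe sets. The 6 dermal papilla markers summed to 921 to 1075 in *Bmal1*-/- and 951.9 to 1049 in *Bmal1*+/- skin. The part of these marker lists in the lower values of *Wif1*, *Sfrp4*, *Sfrp1*, *Lef1*, *Rspo1*, *Rspo3*, *Fzd4* and *Lgr4* was not tested. That of the melanocyte markers was not tested either. The 4 measured markers of suprabasal and cornified keratinocytes were divided. *Ivl* (0.23) and *Lor* (0.17) were higher at an unadjusted p under 0.05 (limma), against 4.17% of all tested probe sets. *Krt1* (-0.14) and *Krt10* (-0.03) had negative differences.

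**Figure D4:**
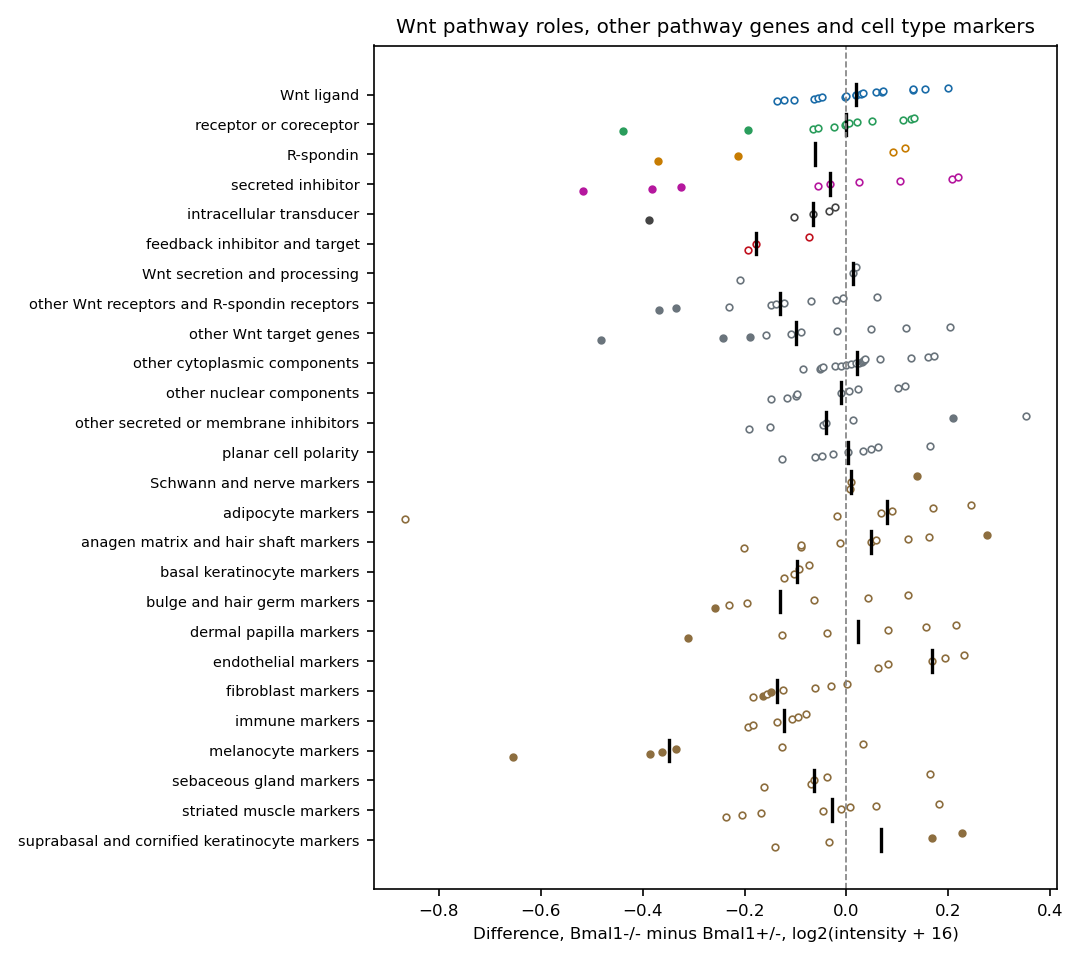
Differences between *Bmal1*-/- and *Bmal1*+/- skin in log2(intensity + 16), 1 point per gene, for the 6 roles of the listed Wnt genes (coloured), 7 groups of other pathway genes (grey) and the marker lists (brown). Filled points have an unadjusted p under 0.05 from limma and black bars are medians. The melanocyte markers have the lowest median of any row, -0.35, and the Wnt ligands lie around 0.02.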

How the data were processed

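RNA of whole dorsal skin from 6 mice was measured on 6 arrays. Linear intensity values, 1 for each probe set, were deposited by the authors, whose processing notes name PLIER 2.0 and version 1.1 of the Affymetrix Expression Console. Their background correction, scaling between arrays, filters and build were not given in the sources used here, and any of these could shift dim genes. From these intensities log2(intensity + 16) was computed, and limma 3.58.1 (R 4.3.3) was fitted over the 23410 probe sets that have a gene symbol (lmFit, eBayes with trend, two-sided, Benjamini-Hochberg). Probe sets without a symbol (12147) were left out as unnamed. All 53 measured genes are named. Values of every mouse are given for those at an unadjusted p under 0.05, those separated between genotypes by 0.3 or more, *Axin2*, *Ctnnb1*, *Wnt10b*, *Wnt5a* and *Dkk3*, and, chosen after their values were seen, the most variable or separated others. The members and lists were chosen with earlier results of these data known.

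The fit was tested on simulated arrays with noise drawn in 2 ways. With moderated variances limma recovered changes of 1 on the log2 scale at the rate required. With each probe set's own variance, the version tried first, it fell short of that rate, and the moderated version was adopted after that failure. Alternatives were another offset, quantile normalization, a filter on dim probe sets, all rows, no variance trend, a Cyber-T type test (window 101, prior weight 10), a replicate block and leaving out each array. Replicates were separate littermates, and p-values measure the spread between these mice. Figures were drawn with matplotlib 3.10.9 under Python 3.11.15.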

Additional observations from a re-analysis of the deposited data

How the results depend on the processing

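The count of Wnt genes called was 0 in every limma setting, and the 8 genes lower at an unadjusted p under 0.05 kept their direction in all 14 settings, with 5 of them under 0.05 in each. The Cyber-T type test called 2 Wnt genes, *Sfrp4* (adjusted p = 0.018) and *Wif1* (adjusted p = 0.0099), and 2 other pathway genes, and at an unadjusted p under 0.001, a combination chosen after seeing the data, 3 Wnt genes (*Wif1*, *Sfrp4* and *Fzd4*, where 1.34% of all tested probe sets passed). Over all tested probe sets, where limma gave 31 lower and 23 higher, it called 177 lower and 96 higher, testing all rows gave 19 and 15, and leaving out the variance trend 16 and 11. The cause of these moves was not tested. Without 1 array, 13 to 23 probe sets were higher and 22 to 34 lower, and 7 to 9 Wnt genes had an unadjusted p under 0.05. The median over the 53 genes ranged from -0.04 to 0.02 and so has no fixed sign. Without 1 array, the log2 difference of *Wnt10b* ranged from -0.11 to 0.027, the positive value without *Bmal1*-/- replicate 3, and that of *Dkk3* from -0.17 to 0.041, positive without *Bmal1*+/- replicate 3 (0.041) and without *Bmal1*-/- replicate 1 (0.012). That of *Wnt5a* was -0.065 without *Bmal1*+/- replicate 2 and that of *Ctnnb1* -0.067 without *Bmal1*-/- replicate 2. Of 182 values of the 13 genes across settings, 177 kept their direction and their side of the adjusted threshold. Deviations of same-numbered mice of the 2 genotypes correlated at 0.08, -0.35 and 0.06, and those of different-numbered mice at -0.26 to 0.26. With 3 mice of each genotype, these values cannot show if mice were paired. The numbers are used here only to name mice. A replicate block gave 34 lower and 20 higher probe sets, 0 Wnt genes called and 8 at an unadjusted p under 0.05, and called 1 of the markers, *Dct* (adjusted p = 0.027). With 3 mice of each genotype, the intervals bound what these data show of each gene.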
